A study of Mus musculus with 30 samples.

Results

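Ighv5-2, also called VH81X, is the functional V segment nearest to the D segments of the mouse heavy-chain (Igh) locus. It lies on chromosome 12 at chr12:114816715-114817201 of mm9, on the minus strand. Its joins were the junctions within 100 bp of that V segment in the v-Abl libraries, and of its counterpart at chr12:114836377-114836863 on the alignment target of the bone marrow libraries. By this rule 332835 of 2074993 junctions were Ighv5-2 joins: 6138 of 935698 in v-Abl cells and 326697 of 1139295 in bone marrow. Nearly all of them lay at the end of the segment that faces D. In bone marrow 310467 joins fell between 1 base before that end and 10 bases into the segment, and 6 fell in the outer 50 bp of the window on the D side, against 2 in the next 100 bp outside it.

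Heavy-chain genes are assembled by the RAG recombinase, which first joins a D segment to a JH segment and then a V segment to the DJH product. RAG cuts beside a recombination signal sequence (RSS), made of a heptamer, a spacer and a nonamer. Between the V part and the D part of the locus is IGCR1 (intergenic control region 1), with CBE1 and CBE2 as its binding elements for CTCF. CTCF-bound sites are known to halt loop extrusion by cohesin, and Ighv5-2 is known for its high use in early B-lineage cells, where much of its product pairs poorly with surrogate light chain.

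The libraries were made by HTGTS-V(D)J-seq, in which genomic DNA is amplified from a bait at JH4 and the sequence joined to it is read. Each of the 10 groups had 3 libraries. The 6 bone marrow groups were pro-B cells, sorted as B220+ IgM- CD43+ from mice of the 129SV strain: WT, CBE1 mutated (CBE1mut, CBE1-/-), CBE2 mutated (CBE2mut, CBE2-/-), both mutated (CBE12mut), and CBE1 or CBE2 inverted on both alleles (CBE1inv and CBE2inv). The 4 v-Abl groups came from C57BL/6 pro-B cells transformed with v-Abl that were RAG1-/-, carried Emu-Bcl2, a WAPL degron and a single Igh, and received RAG1/2 by retrovirus. WAPL releases cohesin from DNA. In the groups called 3CBEdel the CBEs at the 3' end of Igh were deleted as well. Untreated groups had 3 µM STI-571, which arrests these cells in G1, for 4 days, and DoxIAA groups had STI-571 for 1 day and then STI-571 with 150 µM IAA (auxin) and 2 µg/mL doxycycline for 3 days. The v-Abl cells are transformed and arrested, the labels do not say whether bone marrow libraries came from separate mice or v-Abl libraries from separate cultures, and p-values measure only the spread between these libraries. No RNA was measured, so the labelled cell types were not checked against markers.

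Depth was 11105 to 98682 junctions per bone marrow library and 13180 to 175957 per v-Abl library. Ighv5-2 joins numbered 691 to 59586 per bone marrow library, 480 to 1553 per untreated v-Abl library and 43 to 123 per treated one. The names of the deposited files carry tags, which are taken here as runs, although the labels do not say what they stand for. CBE2mut and CBE2inv share a tag that no WT library has. In their comparisons with WT the run, so defined, and the genotype cannot be told apart. Read sequences repeat, and PCR reads are not independent molecules. For Ighv5-2, distinct junctions (position, bait end, gap sequence) were 22.0% to 57.7% of bone marrow reads and 28.8% to 47.3% of v-Abl reads.

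The stretch that RAG cuts is shown for Ighv5-2 and for the neighbours with joins on either side, since the comparisons turn on how these segments differ. Each line runs 5′ to 3′ on the minus strand of mm9, from the conserved cysteine codon at the end of the V segment into the DNA on the D side. The capitals mark in order the heptamer, the nonamer and a match to a core of the CTCF motif (CCA, any 2 bases, AG, any 2 bases, GGC). The positions are chr12:114811063-114811148 for Ighv5-1, chr12:114816640-114816725 for Ighv5-2, chr12:114826403-114826488 for Ighv2-2 and chr12:114835582-114835667 for Ighv5-4.
Ighv5-1: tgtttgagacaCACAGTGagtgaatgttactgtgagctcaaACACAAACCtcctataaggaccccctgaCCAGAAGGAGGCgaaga
Ighv5-2: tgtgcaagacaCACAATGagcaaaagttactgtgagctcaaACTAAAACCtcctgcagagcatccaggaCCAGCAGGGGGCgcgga
Ighv2-2: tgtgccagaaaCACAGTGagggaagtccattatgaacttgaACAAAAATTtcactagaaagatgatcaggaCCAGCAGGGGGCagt
Ighv5-4: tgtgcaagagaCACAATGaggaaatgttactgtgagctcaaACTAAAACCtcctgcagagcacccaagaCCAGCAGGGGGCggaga

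All 4 have a spacer of 23 bases. The heptamer of Ighv5-2 differed from the consensus CACAGTG by G5A and its nonamer from the consensus ACAAAAACC by A3T, with positions counted from 1 at the 5′ end of each. Ighv5-4 carried the same heptamer and the same nonamer. Ighv5-1 had the consensus heptamer and A4C in its nonamer, and Ighv2-2 had the consensus heptamer with C8T and C9T. The motif began 59 bases beyond the coding end of Ighv5-2. Searched on both strands within 100 bases beyond the coding end, its letters occurred at 28 of 121 V segments of mm9 (23.1%) and at 8 of the 10 nearest to D. A match to these letters only describes the sequence, since the assay does not measure binding of CTCF.

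The level of Ighv5-2 joins spanned the 10 groups in a nearly unbroken order. In WT bone marrow it was 3526, 3923 and 3315 per 100000 junctions, a mean of 3588 ± 309 (SD, n = 3). The 3 CBE2inv libraries held 6445, 4981 and 4352, and the 3 CBE2mut libraries 9970, 9779 and 9374. CBE1inv libraries were at 16687, 17671 and 17814. Mutation of CBE1 gave 43920, 48113 and 46659, and mutation of both elements gave 65396, 62902 and 61408, so that most junctions of the CBE12mut libraries were Ighv5-2 joins. No 2 of the 6 bone marrow groups overlapped.

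All v-Abl groups lay below all bone marrow groups. Untreated WT cells held 792, 834 and 883 per 100000, and untreated 3CBEdel cells 570, 495 and 579. Treated WT cells held 252, 333 and 425, and treated 3CBEdel cells 303, 293 and 326. Only these treated groups overlapped each other. Counting error was small beside these differences except in the treated libraries, where the exact 95% interval of the shallowest 3CBEdel library ran from 236 to 439. The bone marrow and v-Abl reads were aligned to different targets, so the order across them is a description.

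**Figure D1:**
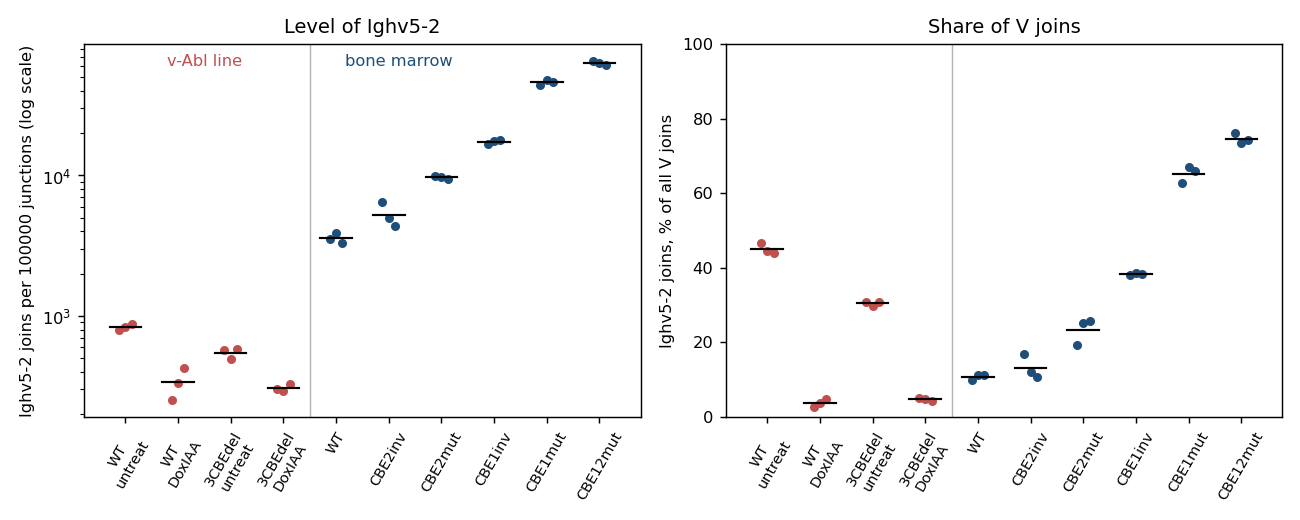
Ighv5-2 joins per 100000 junctions (left, log scale) and as a percentage of all V joins (right) in each library; points are libraries, black lines are group means, red is the v-Abl line and blue is bone marrow. On the left the v-Abl libraries sit at 883 or below and bone marrow rises from a mean of 3588 in WT to 63236 in CBE12mut; on the right untreated v-Abl WT cells, at 45.04%, sit above bone marrow WT, at 10.8%.

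Mutation of both IGCR1 elements raised Ighv5-2 17.6-fold over WT (log2 change 4.16, SE 0.09, limma voom adjusted p = 8.6e-37). Of the 167 segments tested in this contrast 3.59% were called higher and 87.4% lower, and Ighv5-2 had rank 3 from the top by log2 change. Mutation of CBE1 raised it 12.9-fold (3.70, SE 0.09, adjusted p = 1.2e-34), where 2.4% of segments were called higher and 59.9% lower. Inversion of CBE1 raised it 4.85-fold (2.29, SE 0.09, adjusted p = 6.7e-26), against 2.99% called higher and 6.59% lower. These 3 genotypes shared the run of WT. They also share its 3 libraries as controls, so the 3 comparisons are not independent.

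The calls of the other segments depended on the scaling, and those of Ighv5-2 in these 3 contrasts were kept under both other scalings. Median-of-ratios scaling moved the log2 changes by 1.95 in CBE12mut against WT and by 0.98 in CBE1mut, and called 16 segments higher and 5 lower in the first, where the main scaling called 6 and 146. In CBE1mut it called 7 higher and 0 lower (4 and 100 in the main scaling), and in CBE1inv 4 and 2 (5 and 11). With the V joins of each library as its size the counts were 3 and 139 for CBE12mut, 3 and 135 for CBE1mut and 3 and 63 for CBE1inv. Ighv5-2 rose in all of these fits: by 6.10 and 2.80 in CBE12mut, 4.69 and 2.60 in CBE1mut, and 2.46 and 1.84 in CBE1inv. Counted as distinct junctions by position and gap length, the rises were 3.26, 2.66 and 1.52, and with the gap sequence 3.94, 3.48 and 2.19.

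CBE2mut libraries held 2.71 times the WT level of Ighv5-2 (log2 1.45, SE 0.11, limma adjusted p = 4.5e-15), with 5.39% of segments called higher and 6.59% lower. Median-of-ratios scaling called 10 higher and 2 lower in this contrast, and V joins as library size 8 and 46. CBE2inv libraries held 1.47 times the WT level (0.57, SE 0.12, adjusted p = 0.0014), against 2.4% called higher and 2.4% lower. This call was lost under median-of-ratios scaling (0.46, adjusted p = 0.29; 0 segments higher and 3 lower) and with V joins as library size (0.28, adjusted p = 0.35; 0 and 1). The adjusted p ranged from 1.7e-07 to 0.35 over the alternatives. In the run that both came from, Ighv5-2 was lower in CBE2inv than in CBE2mut (−0.88, SE 0.12, adjusted p = 1.2e-06), where 1.8% of segments were called higher and 1.8% lower. Those 3 and 3 segments became 23 and 6 when CBE2mut replicate 1 was left out, 0 and 2 when its replicate 3 was, and 0 and 1 or 1 and 2 when CBE2inv replicate 2 or 3 was, while Ighv5-2 kept its call in each. There median-of-ratios scaling called 3 higher and 7 lower, and V joins as size 16 and 3, with Ighv5-2 at −1.31 and −0.82.

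Inverted CBE1 gave less Ighv5-2 than mutated CBE1, by 2.66-fold (log2 −1.41, SE 0.07, limma adjusted p = 2.2e-22). In this contrast 41.3% of segments were called higher and 2.99% lower, a split of 69 and 5 that became 0 and 7 under median-of-ratios scaling and 125 and 3 with V joins as size. Ighv5-2 itself was at −2.23 and −0.77 in those fits and at −1.14 by distinct junctions. Mutation of both elements gave 1.37 times the level of CBE1mut (0.45, SE 0.07, adjusted p = 8.1e-07), against 2.4% called higher and 55.1% lower. Median-of-ratios scaling called 11 higher and 1 lower there, and put Ighv5-2 at 1.42. With V joins as library size, where 1 segment was called higher and 100 lower, the change of Ighv5-2 was 0.20 and did not pass (adjusted p = 0.077). CBE12mut exceeded CBE2mut by 2.71 (SE 0.09, adjusted p = 6.8e-29; 2.99% of segments higher, 64.7% lower, and 15 higher with 11 lower under median-of-ratios scaling). It was 4.33 under that scaling, 1.70 with V joins as size (2 segments higher, 132 lower) and 1.95 by distinct junctions. CBE12mut and CBE2mut came from different runs, which cannot be told apart from the genotype.

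The share of Ighv5-2 among V joins followed nearly the same order in bone marrow. It was 9.80%, 11.4% and 11.2% in WT and 17.03%, 11.98% and 10.8% in CBE2inv, which overlapped WT (exact permutation p = 0.3). The overlap was gone by distinct junctions, without or with the gap sequence, and with V plus D joins as denominator (5.87% ± 1.1 against 3.70% ± 0.32; exact permutation p = 0.1 in each). CBE2mut libraries were at 19.2%, 25.1% and 25.8%, and CBE1inv libraries at 38.2%, 38.5% and 38.2%. The share reached 62.7%, 66.9% and 65.9% in CBE1mut and 76.1%, 73.5% and 74.3% in CBE12mut. Each of these last 4 groups lay above WT in all 3 libraries, with an exact permutation p of 0.1, the smallest that 3 against 3 libraries allow (0.12 adjusted over the 13 comparisons of this share). The variance between the 6 genotype means passed a permutation test with 100000 draws (p = 1e-05, the smallest the draws can give). CBE2mut and CBE2inv came from another run than the other genotypes, so this test covers run and genotype together. The same holds for the variance tests of frame, bases lost, gap and Ighd1-1 share below.

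Repeated reads weighed on this share. Counted as distinct junctions by position and gap length, the mean was 7.03% in WT, 10.75% in CBE2inv, 17.3% in CBE2mut, 18.3% in CBE1inv, 34.5% in CBE1mut and 46.0% in CBE12mut, so that CBE2mut and CBE1inv, at 23.4% and 38.3% by reads, lay close together. When the gap sequence was also used to tell junctions apart, the means in the same order were 8.89%, 12.4%, 21.6%, 32.5%, 59.1% and 71.0%. The second count was chosen after seeing the data. Positions and lengths alone cannot separate many joins to 1 segment, and only 5.77% to 42.4% of Ighv5-2 reads per bone marrow library were distinct by them.

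Among the V segments with joins around Ighv5-2, the changes in the CBE1 genotypes were larger at Ighv5-1 and Ighv5-2 than at Ighv2-2 and Ighv5-4. The pseudogene Ighv2-1, which mm9 places between Ighv5-1 and Ighv5-2, was not tested: no v-Abl junction fell on it (0 of 935698, which allows up to 0.321 per 100000), and 73 bone marrow junctions fell anywhere between Ighv5-1 and Ighv5-2. Ighv5-1, a pseudogene nearer to D, rose by 5.24 (log2, SE 0.21) in CBE12mut, Ighv5-2 by 4.16, and Ighv2-2, the next segment beyond it, by 1.79 (SE 0.11; limma adjusted p = 9.0e-26, 8.6e-37 and 2.6e-19). Ighv5-4, beyond Ighv2-2, did not pass (0.27, SE 0.14, adjusted p = 0.070). In CBE1mut the changes were 3.80, 3.70, 1.85 and 0.24, and in CBE1inv 2.34, 2.29, 0.83 and −0.61, the last of which passed (adjusted p = 0.0052). In CBE2mut, by contrast, all 4 rose to a similar degree, by 1.66, 1.45, 1.37 and 1.22. Another scaling adds about the same amount to every segment of a contrast and so leaves the order within it. Ighv5-1 stood above Ighv5-2 by more than the standard errors in CBE12mut, and in CBE1mut and CBE1inv their changes lay within 1 SE of each other (SE of Ighv5-1 0.22 and 0.23). The differences between these segments were not tested.

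**Figure D2:**
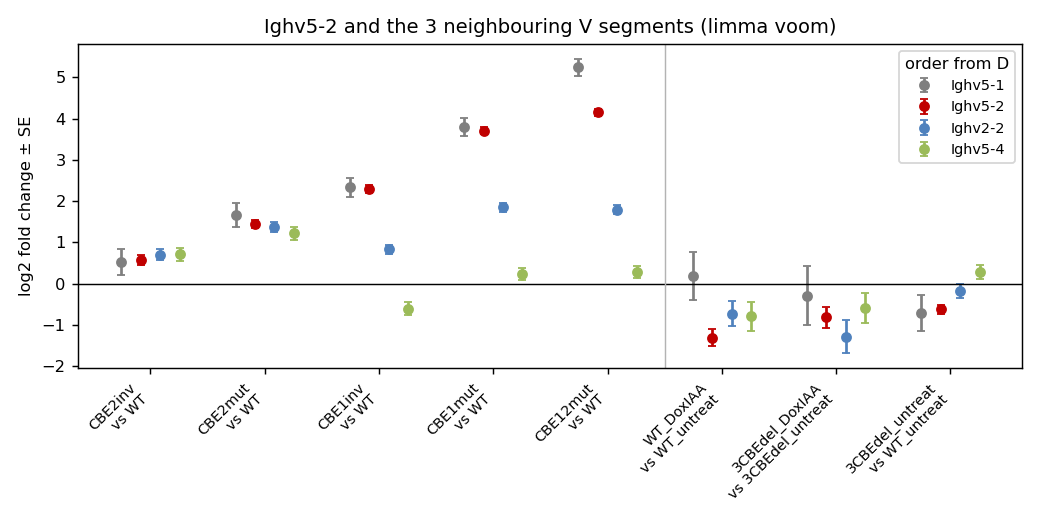
log2 fold change ± SE (limma voom) of Ighv5-2 (red) and of the neighbouring segments Ighv5-1, Ighv2-2 and Ighv5-4, in order from D, for 5 bone marrow and 3 v-Abl comparisons. In CBE12mut the values descend from 5.24 to 0.27 with distance from D; in CBE2mut all 4 lie between 1.22 and 1.66.

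The ratio of Ighv5-2 joins to Ighv2-2 joins needs no library size. It was 1.79 ± 0.05 (SD, n = 3) in WT, 1.62 ± 0.23 in CBE2inv and 1.88 ± 0.02 in CBE2mut. It rose to 4.94 ± 0.46 in CBE1inv, 6.49 ± 0.79 in CBE1mut and 9.17 ± 0.56 in CBE12mut, in each of which every library lay above every WT library. The ratio to Ighv5-4 went from 3.13 ± 0.27 in WT to 23.6 ± 1.1 in CBE1inv, 34.6 ± 1.2 in CBE1mut and 46.5 ± 3.1 in CBE12mut. In mm9 Ighv5-4 has the same heptamer and nonamer letters as Ighv5-2. Its bone marrow counterpart matched mm9 at 95.5% identity, and the RSS letters of that counterpart were not checked. The ratio to Ighv5-1 was 21.6 ± 2.3 in WT, 20.9 ± 0.72 in CBE1inv, 20.1 ± 1.1 in CBE1mut and 10.2 ± 0.69 in CBE12mut. These ratios were not tested.

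Among the 9 other segments of the 10 V nearest to D, 2 were called higher and 6 lower in CBE12mut, with a median log2 change of −1.02 beside −2.04 over all 167 segments. In CBE1mut 2 were higher and 4 lower (median −0.50, all segments −1.02), and in CBE1inv 2 and 3 (−0.54, all segments −0.18). In CBE2mut 7 were higher and 0 lower (median 0.95, all segments −0.35). The rest of the Ighv5 family had 18 tested segments, of which 1 was higher and 16 lower in CBE12mut (median −1.71) and 5 were higher and 0 lower in CBE2mut (0.16). Of 17 Ighv2 segments 1 was higher and 16 lower in CBE12mut (−2.41), and 2 were higher and 0 lower in CBE2mut (−0.31). Of 25 D segments 3 were higher and 13 lower in CBE12mut (−0.84), and 1 was higher and 5 lower in CBE2mut (−0.22). Judged by Ighv5-2, median-of-ratios scaling adds about 1.95 to a log2 change in CBE12mut, 0.98 in CBE1mut and 0.33 in CBE2mut. Added to the medians, these shifts would turn the sign for the nearest V, Ighv5 and D in CBE12mut and the nearest V in CBE1mut. They would also turn the CBE2mut medians of D and, by a small margin, of Ighv2. The lists were not recounted under that scaling.

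Over the 18 bone marrow libraries, the segments whose log2 level followed that of Ighv5-2 most closely were Ighv5-1 (Pearson r = 0.98), an unnamed D segment on the V side of the main D group, closest in sequence to Ighd3-1 (0.89), and Ighv2-2 (0.88). The next 2, both unnamed D segments, had r of 0.48 and 0.41. Over the 12 v-Abl libraries the closest were Ighd1-1 (0.87), Ighv2-2 (0.80), Ighv5-4 (0.68), Ighv5-6 (0.48) and Ighv2-6 (0.33). The libraries fall into groups and share a denominator, so these values describe likeness only.

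IAA and doxycycline lowered Ighv5-2 in both v-Abl lines while most other segments rose. In WT cells the level fell 2.49-fold (log2 −1.31, SE 0.21, limma adjusted p = 1.8e-05), the lowest log2 change of the 82 segments tested, of which 78% were called higher and 4.88% lower. In 3CBEdel cells it fell 1.78-fold (−0.82, SE 0.25, adjusted p = 0.0071), with 73.2% called higher and 3.66% lower. Ighd1-1, the D segment at the far end of the main D group, also fell in both lines (−1.21 and −0.98), as did Ighv2-2 (−0.74 and −1.28, adjusted p = 0.033 and 0.0093). Ighv5-4 fell in WT cells (−0.80, adjusted p = 0.044) and did not pass in 3CBEdel cells (−0.59, adjusted p = 0.14). Ighv5-1 passed in neither line (0.17 and −0.29, limma adjusted p = 0.78 and 0.75). Its sign in WT cells would turn with the shift that median-of-ratios scaling gave Ighv5-2.

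The size of the fall of Ighv5-2 depended on how libraries were scaled, and its direction was kept under both other scalings. With V joins as library size Ighv5-2 fell by 3.57 in WT and by 2.65 in 3CBEdel cells, and under median-of-ratios scaling by 3.49 and 2.53. Median-of-ratios scaling moved the log2 changes of both contrasts by −2.17 and −1.71, and called 49 segments higher and 18 lower in WT cells, where the main scaling called 64 and 4, and 40 and 14 in 3CBEdel cells (60 and 3). With V joins as size 47 were higher and 9 lower in WT cells, and 41 and 10 in 3CBEdel cells. Counted as distinct junctions by position and gap length, the falls were 2.53 and 2.09. Within runs the fall in WT cells was 3.15-fold in the run of replicate 1 and 2.27-fold in that of replicates 2 and 3, and in 3CBEdel cells 1.78-fold in the run of replicates 1 and 2 and 1.77-fold in that of replicate 3. With the run as a block the changes were −1.30 and −0.82 (adjusted p = 1.4e-05 and 0.0019). Whether treatment acted differently in the lines was tested as an interaction, which did not pass (0.49, SE 0.32, limma adjusted p = 0.49, where 0% of segments were called and 1 higher and 12 lower had an unadjusted p under 0.05). The interaction was larger with V joins as library size (0.92, SE 0.31, limma adjusted p = 0.30) and under median-of-ratios scaling (0.95, SE 0.43, adjusted p = 0.37). By distinct junctions of position and gap length it was 0.44 (SE 0.23, adjusted p = 0.19).

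As a share of V joins, Ighv5-2 went from 46.6%, 44.5% and 44.0% to 2.81%, 3.74% and 4.77% in WT cells, and from 30.8%, 29.8% and 30.8% to 5.202%, 4.89% and 4.35% in 3CBEdel cells (exact permutation p = 0.1 for each). V joins were 1.89% ± 0.16 (SD, n = 3) of V plus D joins in untreated WT cells and 9.11% ± 0.03 in treated ones, and 1.81% ± 0.12 and 6.55% ± 0.94 in 3CBEdel cells. The drop in share thus combined fewer Ighv5-2 joins per 100000 with more joins of other V segments.

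Ighv5-2 was 1.53-fold lower in untreated 3CBEdel cells than in untreated WT cells (log2 −0.62, SE 0.11, limma adjusted p = 0.0039). Each is 1 line, so the deletion of the 3' CBEs cannot be told apart from other differences between the lines. Ighv5-2 was the 1 segment called lower in this contrast (1.22% of 82). The 1 called higher (1.22%) was Ighv5-12, a segment named here after its values were seen. The call was lost under median-of-ratios scaling (−0.65, adjusted p = 0.14), where 0 segments were higher and 0 lower, and with limma trend (−0.61, adjusted p = 0.14). Over the alternatives the adjusted p ranged from 5.4e-07 to 0.14. Within the 1 run that held both untreated groups the level was 1.61-fold lower. The share of V joins was lower in all 3 libraries, 30.5% ± 0.59 against 45.04% ± 1.4 (exact permutation p = 0.1). In treated cells no difference passed (−0.13, SE 0.30, adjusted p = 0.77; 1.22% of segments called lower and 0% higher by limma, and 8 and 1 at an unadjusted p under 0.05), and without WT replicate 3 the sign turned (0.05).

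The reading frame of the joins set Ighv5-2 apart from most V segments in bone marrow. A join can encode a heavy chain only if V and JH4 stay in 1 frame, which was read from the conserved cysteine codon to JH4. In WT 27.3%, 28.2% and 30.8% of Ighv5-2 joins were in frame, against 53.4%, 51.0% and 51.6% of the joins of all other V segments in those libraries. Over the 18 bone marrow libraries the Ighv5-2 share was 24.7% to 33.9% (median 27.2%) and that of other V joins 37.2% to 61.6% (median 51.2%). Ighv5-2 was lower in 18 of 18 libraries, with a mean difference of −22.8 percentage points (SD 5.79; sign-flip permutation test with 100000 draws, two-sided p = 2e-05, adjusted p = 8.0e-05). Among the 67 segments with at least 200 such joins in WT, its 28.9% over the pooled libraries was the lowest, with a median of 56.5%. Over all bone marrow libraries pooled it had rank 2 of 98 from the lowest, at 26.5%, after an unnamed V with 304 joins at 22.7%.

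**Figure D3:**
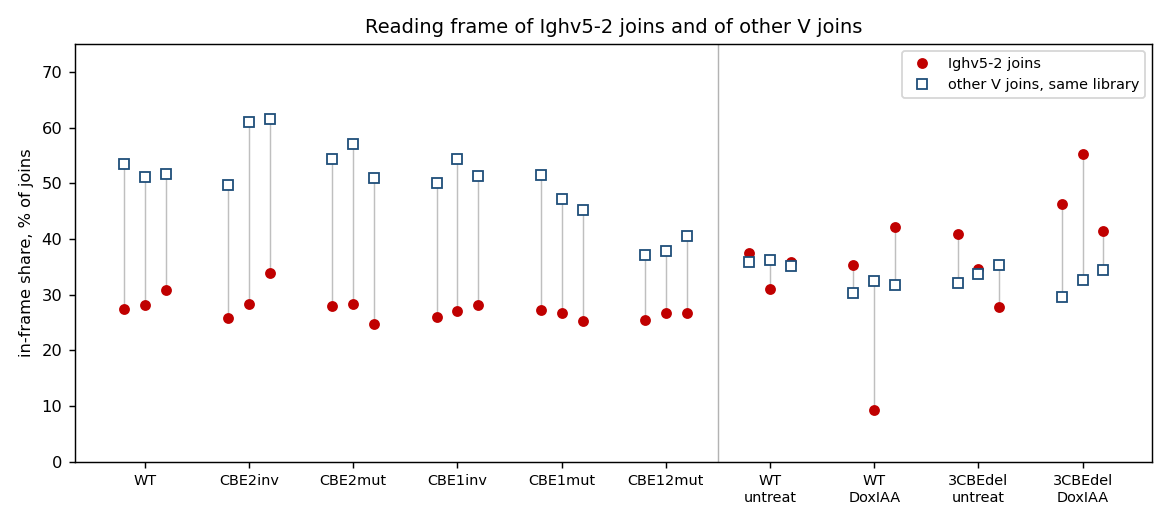
In-frame share of Ighv5-2 joins (red circles) and of all other V joins of the same library (open blue squares) in every library, joined by a line. In bone marrow every Ighv5-2 value lies below its partner, with medians of 27.2% and 51.2%; in untreated v-Abl cells the pairs lie close together near 35%.

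Neighbours of Ighv5-2 had shares of a like size. In WT bone marrow 31.9% ± 2.0 of Ighv2-2 joins, 35.4% ± 3.6 of Ighv5-4 joins and 32.1% ± 14 of Ighv5-1 joins were in frame (SD, n = 3), against 54.7% ± 0.62 for the V segments farther from D than Ighv5-4. Ighv2-2 was below Ighv5-2 in CBE12mut (22.2% ± 2.1 against 26.2% ± 0.76) and in CBE1mut (24.9% ± 2.9 against 26.4% ± 0.97). In CBE12mut the other V joins were in frame in 38.5% ± 1.7 and the V segments farther away in 63.7% ± 1.5. Ighv5-1 and Ighv2-2 had risen there to 6229 ± 232 and 6913 ± 401 per 100000, from 168 ± 33.7 and 2013 ± 226 in WT, and their part in the lower value was not tested. The Ighv5-2 share itself did not differ detectably between the 6 genotypes (26.2% to 29.4% as group means, variance permutation test p = 0.38, adjusted p = 0.44), except that without CBE2inv replicate 1 the test passed (adjusted p = 0.027).

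In untreated v-Abl cells Ighv5-2 was in frame in 34.8% ± 3.4 of joins in WT and 34.4% ± 6.5 in 3CBEdel, and other V joins in 35.8% ± 0.55 and 33.7% ± 1.7. Treated libraries held 41 to 121 readable Ighv5-2 joins. The shares of 35.3%, 9.28% and 42.1% in treated WT cells spread too widely for a comparison. WT DoxIAA replicate 2, with 97 readable joins, was the low one. Treated 3CBEdel libraries were at 46.3%, 55.2% and 41.5%, above their other V joins (29.6%, 32.7% and 34.5%). They also lay above the untreated 3CBEdel libraries, at 40.8%, 34.5% and 27.8%. The exact interval of the shallowest, replicate 3, ran from 26.3% to 57.9%. The test of treatment in 3CBEdel cells left this library out. With so few libraries its p cannot fall below 0.1, so it could pass in no setting (permutation adjusted p = 0.45 to 0.9) and does not decide the question.

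In-frame Ighv5-2 joins of bone marrow also held stop codons more often. A stop was read in 37.3% ± 6.2 of them in WT and in 33.0% ± 0.35 to 38.0% ± 9.6 in the mutants, against 10.6% ± 3.2 to 20.0% ± 1.1 of in-frame joins of other V segments over all 6 groups. Joins both in frame and without a stop were 18.02% ± 1.5 of Ighv5-2 joins in WT and 44.3% ± 1.4 of other V joins. In untreated v-Abl WT cells these values were 28.0% ± 2.2 and 28.6% ± 0.28. The stop codons were not tested, and they were not counted apart for the neighbours of Ighv5-2.

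These 4 joins show what these reads look like. They are the in-frame and out-of-frame junctions with a readable D found in the most libraries of each kind of cell. Ties were broken by the number of reads. Each runs 5′ to 3′ from the cysteine codon of Ighv5-2 to the tryptophan codon of JH4, and the capitals mark the gap, the bases between the V part and the JH4 part.
bone marrow in frame: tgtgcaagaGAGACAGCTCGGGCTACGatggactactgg
bone marrow out of frame: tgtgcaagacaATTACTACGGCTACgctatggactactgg
v-Abl in frame: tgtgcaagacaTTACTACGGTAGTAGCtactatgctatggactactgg
v-Abl out of frame: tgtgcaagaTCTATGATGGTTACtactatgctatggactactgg

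The bone marrow examples were read 18 times in 2 libraries and 16 times in 3 libraries. The v-Abl examples were read 48 times in 6 libraries and 40 times in 7. The in-frame v-Abl join kept the whole coding end of Ighv5-2 and 16 gap bases that lie within Ighd1-1, and the out-of-frame one lost 2 bases and held Ighd2-3. Of 86826 distinct Ighv5-2 junction sequences in bone marrow 99.4% were seen in 1 library, and of 1788 in v-Abl cells 89.3%.

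The coding end of Ighv5-2 was trimmed little. In bone marrow 33.5% to 41.8% of joins per library kept the full end (median 36.4%), 47.1% to 55.3% had lost 1 to 3 bases, and 4.65% to 7.52% had lost over 6. The mean loss was 1.82 ± 0.05 bases in WT and 2.14 ± 0.01 in CBE12mut (SD, n = 3), and 1.69 to 2.16 over the 18 libraries. In v-Abl cells it was 0.99 to 1.62, below every bone marrow library, with 11.8% ± 0.25 of joins short of 4 to 6 bases and 1.23% ± 0.38 of over 6 in untreated WT, against 6.54% ± 0.92 and 5.27% ± 0.58 in WT bone marrow. The 6 genotypes differed in the variance permutation test (p = 0.013, adjusted p = 0.020), a call lost without any 1 of 6 libraries and when losses were limited to 15 bases. Ighv5-2 joins lost 0.13 bases more than other V joins on average (higher in 14 of 18 libraries, sign-flip permutation p = 0.0095, adjusted p = 0.019), a difference that turned to −0.01 with that limit.

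The gap separated the kinds of cells. It was 16.9 ± 0.09 bases on average in WT bone marrow and between 16.5 ± 0.24 and 16.9 ± 0.03 in the mutants. In v-Abl cells it was 11.1 ± 0.23 in untreated WT and 11.9 ± 0.61 in untreated 3CBEdel cells, and no bone marrow library reached as low as any v-Abl library. A gap over 20 bases was found in 25.4% to 34.7% of Ighv5-2 joins per bone marrow library and in 0% to 19.4% per v-Abl library. No gap in the deposited reads exceeded 30 bases, so longer ones are not counted. Other V joins had a mean gap of 17.2 ± 0.08 in WT bone marrow and 12.7 ± 0.22 in untreated v-Abl WT cells. Within bone marrow Ighv5-2 differed from other V joins by 0.03 bases (sign-flip permutation p = 0.70). By distinct junctions of position and gap length the difference was −0.68 bases (adjusted p = 1.1e-04 in the same permutation test), and with the gap sequence 0.07 (adjusted p = 0.40).

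**Figure D4:**
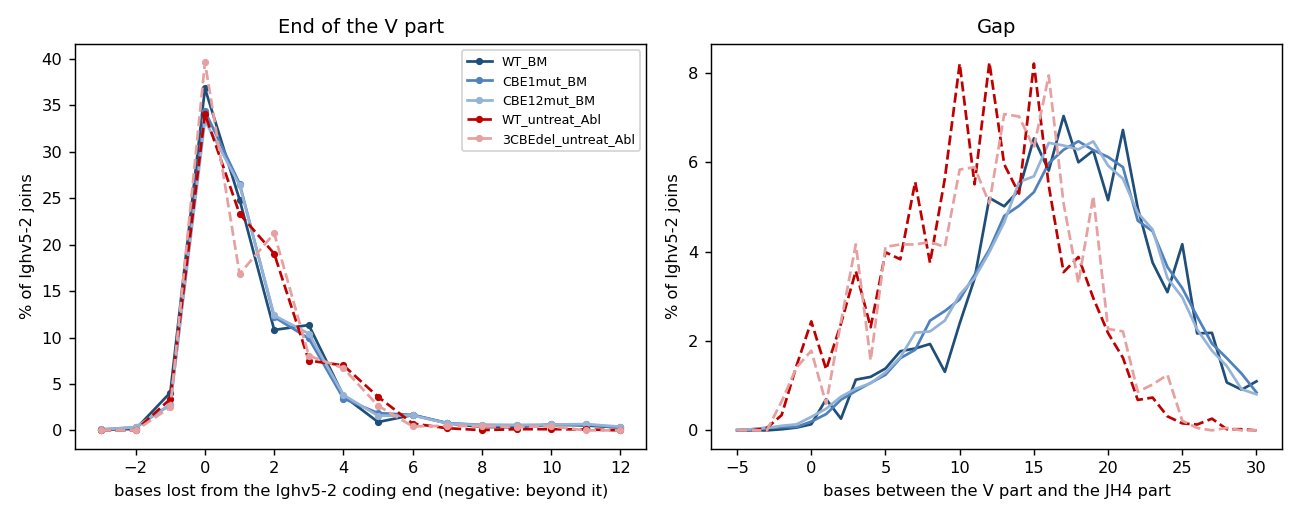
Percentage of Ighv5-2 joins by bases lost from the V coding end (left; negative values lie beyond the end) and by the number of bases between the V part and the JH4 part (right), for 3 bone marrow groups (blue, solid) and 2 untreated v-Abl groups (red, dashed), libraries of a group pooled. Losses of over 6 bases are fewer in v-Abl cells (1.23% in untreated WT against 5.27% in WT bone marrow), and the gap is shorter there, with means of 11.1 and 16.9.

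Inside the gap, Ighv5-2 joins held the D segment Ighd1-1 less often than other V joins did. Ighd1-1 (DFL16.1) is the outermost D of the main group, and its 23 bases at chr12:114720381-114720403 of mm9 are shown here on the minus strand, as the D read in the v-Abl example above.
Ighd1-1: TTTATTACTACGGTAGTAGCTAC

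A D was assigned from the longest run of gap bases found in any D, of at least 8 bases. Only 1 D sequence could hold a run of that length, and identical copies counted as 1 D. This was possible for 49.4% to 58.98% of Ighv5-2 joins per bone marrow library and 56.9% to 83.6% per v-Abl library. In WT bone marrow Ighd1-1 made up 12.02%, 10.3% and 12.02% of these joins, against 24.5% ± 0.18 (SD, n = 3) in other V joins. The pair of values was 12.3% ± 1.0 and 24.4% ± 1.1 in CBE1mut, 7.65% ± 0.25 and 21.8% ± 0.75 in CBE1inv, 5.67% ± 1.8 and 11.9% ± 1.1 in CBE2inv, and 4.90% ± 2.0 and 13.2% ± 0.97 in CBE2mut. In CBE12mut the values were 3.33% ± 0.15 and 4.41% ± 0.46. Ighv5-2 was lower in 18 of 18 bone marrow libraries, with a mean difference of −9.14 percentage points (sign-flip permutation p = 2e-05, adjusted p = 8.0e-05).

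The Ighd1-1 share in Ighv5-2 joins differed between the 6 bone marrow genotypes (variance permutation test p = 3e-05, adjusted p = 8.0e-05). Every library of CBE12mut, CBE1inv, CBE2mut and CBE2inv lay below every WT library, and CBE1mut overlapped WT (exact permutation p = 0.6). Beside this, Ighd1-1 made up 22.1% of D joins to JH4 in WT, 21.7% in CBE1mut and 17.9% in CBE1inv, libraries pooled. It made up 12.7% in CBE2mut, 10.3% in CBE2inv and 2.43% in CBE12mut. Its own joins were 14046 ± 1187 per 100000 in WT, 5811 ± 149 in CBE1mut and 312 ± 68.5 in CBE12mut, a level counted over all junctions, V joins included. The D most often read inside WT Ighv5-2 joins was an unnamed segment closest to Ighd2-5, at 35.5% against 18.8% in other V joins, libraries pooled, and it was chosen after its values were seen. Neighbours of Ighv5-2 were also low in Ighd1-1 in WT, at 13.9% ± 3.4 for Ighv2-2, 12.5% ± 3.5 for Ighv5-4 and 13.1% ± 3.5 for Ighv5-1, against 25.9% ± 0.32 for V segments farther from D than Ighv5-4.

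**Figure D5:**
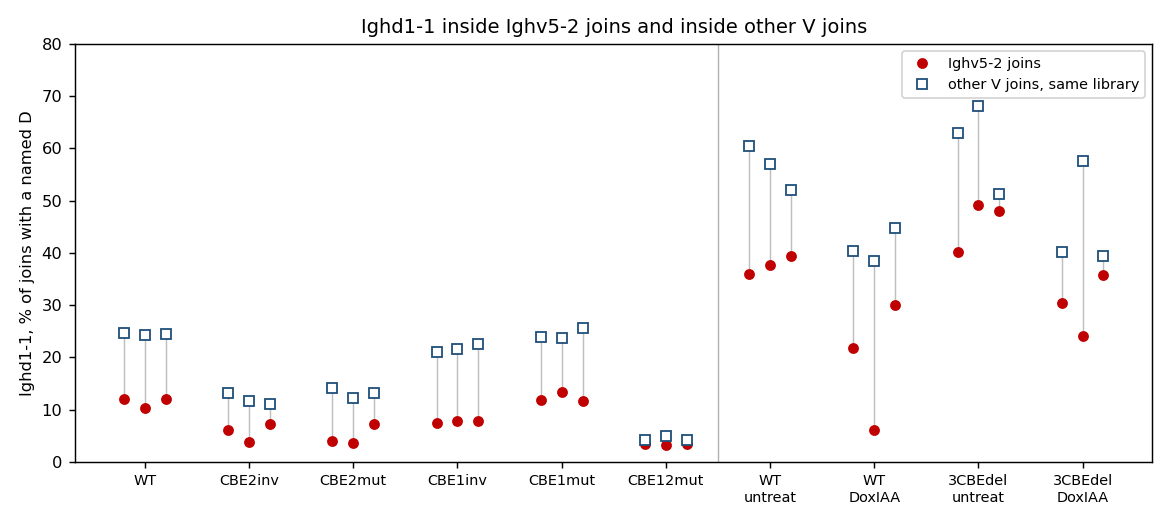
Share of Ighd1-1 among joins with an assigned D, in Ighv5-2 joins (red circles) and in all other V joins of the same library (open blue squares). Ighv5-2 lies below its partner in all 18 bone marrow and all 12 v-Abl libraries, and both are lowest in CBE12mut, at means of 3.33% and 4.41%.

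The same order held in v-Abl cells at higher levels. The D segments differ between the 2 alignment targets. A D that could not be told from another was read in 8.90% to 17.1% of Ighv5-2 joins per bone marrow library. In v-Abl libraries this was 0% to 1.82%, so the levels across the cells are a description. Ighd1-1 was in 35.9%, 37.7% and 39.5% of Ighv5-2 joins in untreated WT cells and in 40.2%, 49.1% and 48.1% in untreated 3CBEdel cells, against 56.6% ± 4.2 and 60.8% ± 8.6 of other V joins. Treated cells held 21.9%, 6.06% and 30% in WT and 30.4%, 24% and 35.7% in 3CBEdel, from 28 to 70 joins each. All 12 v-Abl libraries were lower for Ighv5-2. The treated WT libraries lay below the untreated ones (exact permutation p = 0.1, adjusted p = 0.13), and so did the 3CBEdel libraries, whose test left out replicate 3 of the treated group because it held fewer than 50 Ighv5-2 joins (exact permutation p = 0.1).

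A small number of reads ran from the bait into the DNA on the D side of Ighv5-2, in the orientation opposite to a V join. There were 2029 of these in bone marrow, at most 0.80% of the Ighv5-2 joins of a library, and the v-Abl libraries held 17. In bone marrow 1214 of them began exactly at the heptamer, and 1206 of those carried its letters. The whole mm9 heptamer, spacer and nonamer shown above was read in 1146 of them (94.4%), and RSS and CTCF-like motif together in 1047 (86.2%). In v-Abl cells 5 of the 6 reads that began there held the whole RSS. In these reads the RSS of the bone marrow allele was thus read directly, with the letters of the mm9 reference.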

How the data were processed

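HTGTS-V(D)J-seq libraries of 18 bone marrow and 12 v-Abl samples were analysed. The deposited files hold no counts per segment: a line stands for 1 read and its junction, and the columns hold other values, which per the file headers are positions, orientation, read coordinates and sequence. The alignment target was mm9 for v-Abl libraries and, for bone marrow, mm9 carrying a 129 Igh sequence, per the labels, which also say that enzyme blocking was left out. Bowtie2 is named in the submitters' processing notes, without a version. A duplicate column is 0 on all 2074993 lines although reads repeat.

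Junctions within 100 bp of a V or D segment were counted here. In bone marrow the segments were called from these reads, as clusters of at least 50 pooled junctions that matched an mm9 segment by sequence. Of 150 V and 26 D called there, 45 and 10 could be named. Families of the others are those of their closest mm9 segment. A segment could thus enter through the groups in which it was high. In v-Abl cells the annotated mm9 segments were used, with clusters called likewise outside them. Tests used limma 3.58.1 voom in R 4.3.3, with the library size set to the number of its junctions and separate fits for the 167 bone marrow and 82 v-Abl segments that reached 10 junctions in 3 or more libraries. P-values were Benjamini-Hochberg adjusted, with a threshold of 0.05. The fit was also run on simulated counts in which a minority of segments changed in 1 group. In contrasts such as CBE12mut against WT most segments were called, which those counts did not mimic, so that run does not vouch for these calls. Shares, frame, trimming, gap and D were compared by permutation (Python 3.11.15, scipy 1.17.1), two-sided. Between 2 groups of 3 libraries the smallest such p is 0.1, so these comparisons could not pass in any setting. Their p-values were adjusted over 13 contrasts for the share, over 9 contrasts for each other measure, and over the 8 tests of these measures across bone marrow libraries. In v-Abl cells, libraries with fewer than 50 Ighv5-2 joins were left out of those tests. Intervals are exact Poisson or binomial 95% intervals and cover counting error only. Named beside Ighv5-2 were its neighbours Ighv5-1, Ighv2-2 and Ighv5-4 and the 5 segments most correlated with it in each kind of cell. Ighv5-1 is not in the mm9 annotation and was named from its place in RefSeq. The member, the lists and the tests were chosen with earlier results of these data known. In only 1 contrast, CBE1inv against WT, did all 3 same-numbered pairs of libraries correlate above 0.1 (r = 0.15, 0.10 and 0.32), and nothing in the labels says that numbers pair libraries across groups.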

Additional observations from a re-analysis of the deposited data

How the results depend on the processing

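Of 72 results, 48 kept direction and call in every alternative. Permutation tests of 2 groups could never pass, only change direction. Causes of changes were not tested. The log2 level of CBE2inv against WT was 0.46 under median-of-ratios scaling and 0.28 with V joins as library size, CBE12mut against CBE1mut 0.20 with V joins as size, and untreated 3CBEdel against WT −0.65 under median-of-ratios scaling and −0.61 with limma trend, each with an adjusted p above the threshold. Treated 3CBEdel against WT, not called, turned to 0.30 and 0.36 under the 2 scalings, lay between −0.29 and 0.05262 with 1 library left out, and as a share of V plus D joins was −0.03065 percentage points.

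With the replicate number as a block no call on Ighv5-2 changed, and CBE1inv against WT, where all 3 pairs of numbers correlated, was 2.29 (adjusted p = 3.4e-29), with 13 segments called. It moved counts of called segments by over 1.5 times for treated 3CBEdel against WT (1 to 2) and the difference of the treatment effects (0 to 1).

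The in-frame variance between genotypes lay between 0.90 and 1.87 with 1 library left out, and passed only without CBE2inv replicate 1. Uncalled in-frame differences that turned sign, in percentage points, were 0.45, 0.81, 0.03413 and −1.24 for CBE12mut, CBE1mut, CBE1inv and CBE2inv against WT by distinct junctions; −2.29 and −0.65 for CBE2inv with gap sequence and also with read end; −0.13 and −1.66 for CBE2inv without WT replicate 1 or CBE2inv replicate 3 (range −1.66 to 2.34 with 1 library left out); 0.79 and 0.06692 for treated against untreated WT v-Abl cells by distinct junctions without and with gap sequence (range with 1 library left out −12.5 to 3.96); and, for untreated 3CBEdel against WT, 0.22 and 1.05 by distinct junctions with gap sequence and also read end, and 0.74 with gaps of at least 8 bases (range −3.60 to 2.93 with 1 library left out).

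For bases lost, limiting losses to 15 bases gave a variance measure of 0.07769 between genotypes (adjusted p = 0.53; range 0.11 to 0.14 with 1 library left out), −0.008319 against other V joins and −0.02843 for CBE2inv against WT. The call between genotypes was lost without WT replicate 1, CBE1mut replicate 3, any CBE1inv library or CBE2inv replicate 2. CBE2mut against WT turned to −0.002264 without WT replicate 1 and −0.05948 without CBE2mut replicate 2 (highest value 0.1014). Untreated 3CBEdel against WT was 0.08178 by distinct junctions with gap sequence (range −0.12 to 0.02036), and the treated contrast −0.02535 by distinct junctions (range −0.12 to 0.11).

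For the gap, distinct junctions gave 0.57 between genotypes and −0.68 against other V joins, both past the threshold, and −0.98 and −0.75 for CBE1mut and CBE1inv against WT. With 1 library left out these were 0.14 to 0.23 (past the threshold without CBE2inv replicate 3) and −0.009625 to 0.05711 (−0.0004495 without CBE12mut replicate 2). CBE1mut against WT was −0.03507 without WT replicate 1 and −0.003879 without CBE1mut replicate 3 (highest 0.05853); CBE1inv was −0.04411, −0.002325 and −0.10 without WT replicate 1, WT replicate 2 and CBE1inv replicate 1 (highest 0.07349). By median gaps CBE2inv against WT was 0.33 and treated against untreated 3CBEdel −1.17. Depth limits the treated v-Abl libraries, at 43 to 123 Ighv5-2 joins, and smaller CBE2 libraries.

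Counts of called segments moved by over 1.5 times in every contrast under some setting; the first ranges leave out the fits without 1 library. Against WT the range for CBE2inv was 1 to 9 (8 as reported), for CBE2mut 12 to 54 (20), for CBE1inv 6 to 66 (16), for CBE1mut 7 to 138 (104) and for CBE12mut 21 to 157 (152). They were 7 to 128 (74) for CBE1inv against CBE1mut, 4 to 19 (6) for CBE2inv against CBE2mut, 12 to 106 (96) for CBE12mut against CBE1mut and 26 to 134 (113) for CBE12mut against CBE2mut. In v-Abl cells they were 34 to 108 (68) for treatment in WT, 36 to 105 (63) in 3CBEdel, 0 to 7 (2 untreated, 1 treated) for 3CBEdel against WT, and 0 to 4 (0) for the difference of the treatment effects. With 1 library left out, they moved as much for CBE1inv against WT (9 without WT replicate 2 or 3), CBE1inv against CBE1mut (45 without CBE1mut replicate 2), CBE2inv against WT (5 without CBE2inv replicate 2), CBE2mut against WT (33 and 11 without CBE2mut replicate 1 and 3) and CBE2inv against CBE2mut (1 to 29). In v-Abl cells 3CBEdel against WT had 1 to 4 calls untreated and 1 to 3 treated, and the difference of the treatment effects 0 to 1.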
